A study of Mus musculus with 23 samples.

Results

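The genes described here are the Id factors and a set of TGF-beta pathway genes: the ligand gene Tgfb1, the receptors Tgfbr1 and Tgfbr2, the inhibitors Smad6, Smad7 and Skil, the Id genes Id1, Id2 and Id3, and the induced matrix gene Tgfbi. They were taken by gene symbol, 10 of the 19938 genes measured, and the probe set of each gene was to be chosen by its mean log2 expression over the 23 arrays, the highest being kept. Each of the 10 had 1 probe set with its symbol alone, so that choice removed nothing, and it used no difference between groups. RNA came from macrophages that were grown from the marrow of wild-type C57BL/6 mice for 6 days in M-CSF at 10 ng/mL and treated 1 to 3 days after its removal. The cells received 250 µM of stearic acid (SA), which is saturated, or of oleic acid (OA), a monounsaturated acid of equal length, for 20 h or 5 h, with 4 arrays for each acid and time. Another group had lipopolysaccharide (LPS), a bacterial product sensed by TLR4, at 1 ng/mL for 5 h (n = 4). The vehicle, bovine serum albumin (BSA) that also carried the acids, was given alone at 125 µM for 5 h (n = 3). No vehicle group of 20 h is among the arrays, and the sample labels give 5 h for LPS and vehicle where the series text gives 4 h.

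TGF-beta is secreted in a latent form and, once freed, brings together the receptors encoded by Tgfbr2 and Tgfbr1. Tgfbr1 then phosphorylates SMAD proteins that enter the nucleus, while the related bone morphogenetic proteins (BMPs) act through other receptors and SMADs and are classic inducers of Id genes. Smad6, Smad7 and Skil are themselves induced by these ligands and damp the signal. Id proteins lack a DNA-binding domain and hold back helix-loop-helix transcription factors such as the E proteins. In macrophages the pathway is known for restraining inflammatory activation.

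Values are log2 expression, so a difference of 1 is a doubling, and levels of different probe sets are not compared with each other. Array medians lay between 3.98 and 4.12, and replicate 2 of 20 h SA had the widest spread of gene deviations from its group (SD 0.215, where its fellow replicates had 0.153 to 0.161). All 8 macrophage markers stood above the median of the tested genes in every group. The mean of that list was 9.07 to 9.20 on the 20 h SA arrays, against 9.91 to 9.94 on the 20 h OA arrays. Of 7 neutrophil markers, 5 were above the median of the tested genes and Ly6g and Elane were below it. Means of the stromal, dendritic, B, T and NK, erythroid, mast and endothelial lists were below it on every array. The samples are called replicate wells in the labels and biological replicates in the series text, so the spread behind each p-value may be technical. A gene was called changed at a limma adjusted p under 0.05, adjusted over all 19938 genes.

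The ligand gene Tgfb1 had the narrowest span of the 10 across the 6 groups. Its group means spanned 0.33 on the log2 scale, 1.26-fold, between 9.33 ± 0.10 (SD, n = 4) in 20 h OA and 9.0 ± 0.13 (SD, n = 4) in 5 h SA. The arrays of each group overlapped those of the next group in the order of means. Tgfbr1, the type I receptor that passes the signal to SMADs, covered a wider range. It read 8.74, 8.66, 8.64 and 8.71 on the 20 h SA arrays, against 9.38, 9.49, 9.38 and 9.31 on the 20 h OA arrays. At 5 h it read 9.54, 9.61, 9.67 and 9.50 with SA, and 9.93, 10.08, 10.10 and 10.06 with OA. The LPS arrays read 8.96, 9.34, 9.30 and 9.06, and the vehicle arrays 9.86, 9.89 and 10.09. The order of means was 5 h OA, vehicle, 5 h SA, 20 h OA, LPS and 20 h SA. The first pair and the pair of 20 h OA and LPS overlapped, and every 20 h SA array lay below every other array.

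Tgfbr2, the type II receptor that binds the ligand first, spanned 0.39 on the log2 scale. It was highest in 20 h OA, at 6.12 ± 0.17 (SD, n = 4), and next in 5 h OA, at 5.88 ± 0.06 (SD, n = 4). The other 4 groups had means of 5.73 or 5.74 and overlapped each other. Replicate 1 of 20 h OA, at 6.37, stood above the 6.00 to 6.06 of the other arrays of its group.

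The inhibitors Smad6, Smad7 and Skil were all at lower levels in both 20 h groups than in the 5 h acid groups. Smad6, which acts mainly on BMP signals, ran from 3.74 to 4.42 in 20 h SA and from 3.88 to 4.56 in 20 h OA. Its 5 h levels were 4.77 to 5.13 with SA, 4.83 to 5.14 with OA, 4.44 to 4.88 with LPS and 4.82 to 5.08 with vehicle. Its means were 4.08 ± 0.31 in 20 h SA and 4.10 ± 0.31 in 20 h OA (SD, n = 4 each), close to the array medians, so the size of its fall is uncertain. Smad7, which blocks the type I receptor, had its lowest level with LPS. The LPS arrays read 4.43, 4.58, 4.68 and 4.08, against 5.58, 5.34 and 5.84 on the vehicle arrays. It ran from 4.64 to 5.02 in 20 h SA, 4.75 to 4.85 in 20 h OA, 5.33 to 5.61 in 5 h SA and 5.65 to 5.80 in 5 h OA. Skil, a nuclear repressor of SMAD targets, read 6.36, 6.26, 6.28 and 6.22 in 20 h SA and 6.14, 6.19, 6.07 and 6.35 in 20 h OA, which overlap. Its 5 h levels were 7.51 to 7.81 with SA, 7.55 to 7.74 with OA, 7.83 to 8.09 with LPS and 7.61 to 7.77 with vehicle. The 20 h arrays thus lay more than 1 unit below every 5 h array for this gene, and LPS was the highest group.

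**Figure D1:**
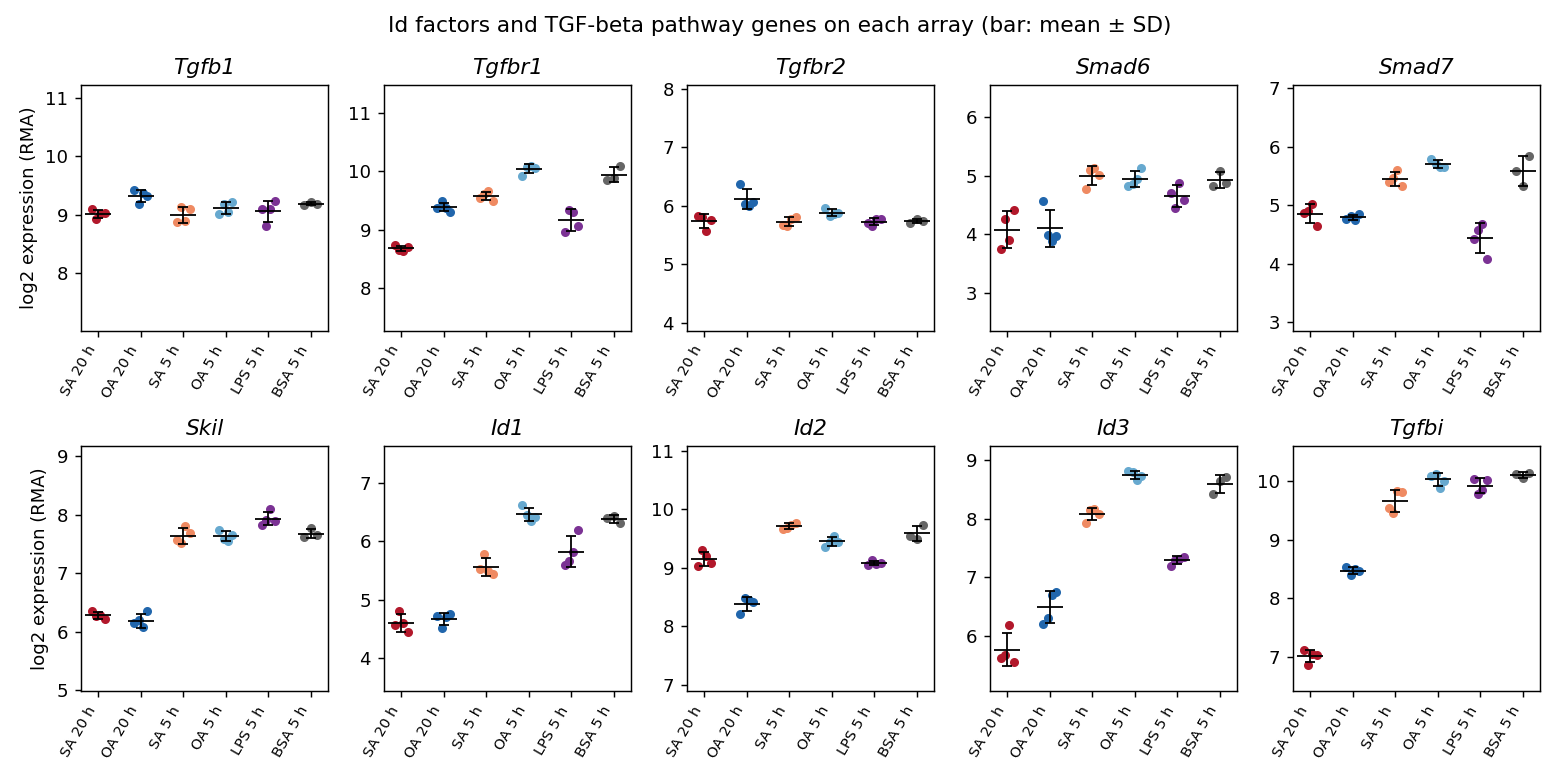
Log2 expression of the 10 genes on each of the 23 arrays, 1 panel per gene, with points for arrays and bars for the mean ± SD of a group (n = 4, vehicle n = 3). All panels span the same height in log2 units; the mean of Tgfbi is 7.01 in 20 h SA and 8.47 in 20 h OA, whereas all Tgfb1 arrays lie between 8.81 and 9.43.

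The 3 Id genes had different orders of groups. Id1 read 4.56, 4.81, 4.61 and 4.45 in 20 h SA and 4.72, 4.52, 4.70 and 4.76 in 20 h OA, and these groups overlap. At 5 h it read 5.53, 5.78, 5.49 and 5.44 with SA, and 6.62, 6.45, 6.35 and 6.42 with OA. The LPS arrays read 5.60, 5.67, 5.81 and 6.20, overlapping 5 h SA, and the vehicle arrays read 6.39, 6.44 and 6.31, overlapping 5 h OA. The order was therefore in 3 steps: OA and vehicle at 5 h, then LPS and SA at 5 h, then both acids at 20 h.

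Id3 read 5.62, 5.68, 6.18 and 5.56 in 20 h SA, against 6.20, 6.31, 6.69 and 6.75 in 20 h OA. Its 5 h values were 7.93, 8.15, 8.17 and 8.09 with SA, and 8.82, 8.80, 8.66 and 8.74 with OA. With LPS they were 7.20, 7.30, 7.32 and 7.35, against 8.43, 8.64 and 8.72 with vehicle. Apart from OA and vehicle at 5 h, neighbouring groups in the order of Id3 did not overlap, and the group means spanned 2.99 on the log2 scale, 7.95-fold. The gap between 20 h SA and 20 h OA was narrow, with replicate 3 of SA at 6.18 just under replicate 1 of OA at 6.20.

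Id2 differed from the other Id genes in that SA stood above OA at both times. It read 9.04, 9.30, 9.21 and 9.08 in 20 h SA, against 8.21, 8.48, 8.45 and 8.41 in 20 h OA. At 5 h it read 9.67, 9.68, 9.74 and 9.77 with SA, and 9.36, 9.45, 9.55 and 9.45 with OA. The LPS arrays read 9.05, 9.13, 9.06 and 9.08, and the vehicle arrays 9.54, 9.49 and 9.74. The 20 h OA arrays were the lowest for Id2, and 20 h SA overlapped LPS.

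Tgfbi, an extracellular matrix protein named for its induction by TGF-beta, had the widest span of the 10 genes, 3.10 on the log2 scale or 8.58-fold. It read 7.12, 6.86, 7.04 and 7.03 in 20 h SA, against 8.53, 8.40, 8.50 and 8.46 in 20 h OA. At 5 h it read 9.55, 9.46, 9.83 and 9.81 with SA, and 10.10, 10.13, 9.89 and 10.01 with OA. With LPS it ran from 9.78 to 10.04, and with vehicle from 10.06 to 10.15. The 20 h SA arrays were all more than 1 unit below the 20 h OA arrays, which were in turn below every 5 h array.

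The promoters of Id2, Id3 and Tgfbi are shown because these 3 of the 10 genes had the largest fold differences between the acids at 20 h, Id2 upward and the others downward. Tgfbr1 came next. The sequences are the 250 bases before the RefSeq start in GRCm38.p6, 5′ to 3′ on the strand of the gene. Capitals mark GTCT, the short SMAD-binding box, on either strand, and GGCGCC, a GC-rich SMAD motif. The windows are chr12:25096093-25096342 on the minus strand for Id2, chr4:136143572-136143821 on the plus strand for Id3 and chr13:56609336-56609585 on the plus strand for Tgfbi.
Id2: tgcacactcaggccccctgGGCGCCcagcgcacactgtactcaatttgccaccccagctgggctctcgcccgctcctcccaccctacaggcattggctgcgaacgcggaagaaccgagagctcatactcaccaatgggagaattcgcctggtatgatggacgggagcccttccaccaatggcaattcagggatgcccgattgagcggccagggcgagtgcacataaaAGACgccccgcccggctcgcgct
Id3: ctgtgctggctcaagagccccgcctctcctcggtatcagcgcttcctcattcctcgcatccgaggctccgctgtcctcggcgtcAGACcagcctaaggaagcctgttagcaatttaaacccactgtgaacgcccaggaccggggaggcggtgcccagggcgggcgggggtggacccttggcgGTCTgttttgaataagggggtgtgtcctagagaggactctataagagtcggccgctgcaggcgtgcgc
Tgfbi: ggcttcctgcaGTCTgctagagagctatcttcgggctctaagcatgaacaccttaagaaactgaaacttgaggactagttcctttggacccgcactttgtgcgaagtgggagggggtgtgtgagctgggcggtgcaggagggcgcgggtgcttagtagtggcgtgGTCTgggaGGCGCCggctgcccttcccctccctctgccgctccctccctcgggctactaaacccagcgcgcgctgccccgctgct

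GTCT or its reverse complement occurred 2 times in the Id3 window, 166 and 68 bases before the start. It occurred 2 times in that of Tgfbi, 239 and 85 bases before, and 1 time in that of Id2, 23 bases before. This is the usual case, since 82.9% of the 32851 RefSeq promoter windows of 250 bases hold it. GGCGCC occurred 231 bases before the start of Id2 and 77 bases before that of Tgfbi, and in 9.59% of all windows. No match overlapped another, and the matches are letters in a window, not shown sites. RefSeq windows were matched for 7 of the 10 genes, the others being Id1, Smad7 and Skil.

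The comparison of SA with OA at matched dose and time asks whether a saturated and a monounsaturated acid differ in their effect. At 20 h, Tgfbi was 2.75-fold lower with SA than with OA, at 7.01 ± 0.11 against 8.47 ± 0.06 (SD, n = 4 each). Id3 was 1.65-fold lower, at 5.76 ± 0.28 against 6.49 ± 0.27 (SD, n = 4 each). Both receptors were lower too, Tgfbr1 by 1.62-fold and Tgfbr2 by 1.30-fold, as was the ligand Tgfb1, by 1.24-fold. Id2 went the other way, 1.71-fold higher at 9.16 ± 0.12 with SA against 8.39 ± 0.12 with OA (SD, n = 4 each). In bulk RNA, fewer cells of a type and less RNA per cell cannot be told apart. The mean of the macrophage marker list was also lower with SA at 20 h, but its members did not move alike. Fcgr1 averaged 5.87 with SA against 8.0 with OA, and Itgam 8.82 against 9.87. Lyz2 averaged 11.78 against 12.03, and Cd68, the only marker not lower with SA, 11.48 against 11.45. The part of the marker shift in these differences was not tested.

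In the limma fit the log2 difference of SA from OA at 20 h was -1.46 ± 0.09 (SE) for Tgfbi, with an adjusted p of 1.41e-11. It was -0.72 ± 0.13 (SE) for Id3 (adjusted p = 1.16e-04) and -0.70 ± 0.09 (SE) for Tgfbr1 (adjusted p = 1.19e-06). For Id2 it was 0.77 ± 0.08 (SE), with an adjusted p of 9.15e-08. Tgfbr2 changed by -0.38 ± 0.09 (SE) (adjusted p = 0.00208) and by -0.29 without replicate 1 of 20 h OA (adjusted p = 0.0148). Tgfb1 changed by -0.31 ± 0.09 (SE) (adjusted p = 0.0177), a call that was lost without 20 h OA replicate 1 (adjusted p = 0.0673) or 20 h SA replicate 2 (adjusted p = 0.053) and after quantile normalisation (adjusted p = 0.0578). In all, 1 of the 10 genes rose and 5 fell, where 16.7% of all genes were called, 7.72% upward and 8.95% downward. The median difference was -0.19 for the 10 genes and 0.03 for all genes. The 10 genes were chosen with earlier results of these data known, so these counts describe them only.

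The inhibitors and Id1 did not separate the acids at 20 h. On the log2 scale SA differed from OA by -0.02 for Smad6 (95% interval -0.33 to 0.29), 0.07 for Smad7 (95% interval -0.17 to 0.31) and 0.09 for Skil (95% interval -0.09 to 0.27). For Id1 the difference was -0.07 (95% interval -0.30 to 0.17). The adjusted p of these 4 genes lay between 0.588 and 0.967 in limma. The widest of these intervals, that of Smad6, ran from -0.33 to 0.29, so equal levels were not shown.

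**Figure D2:**
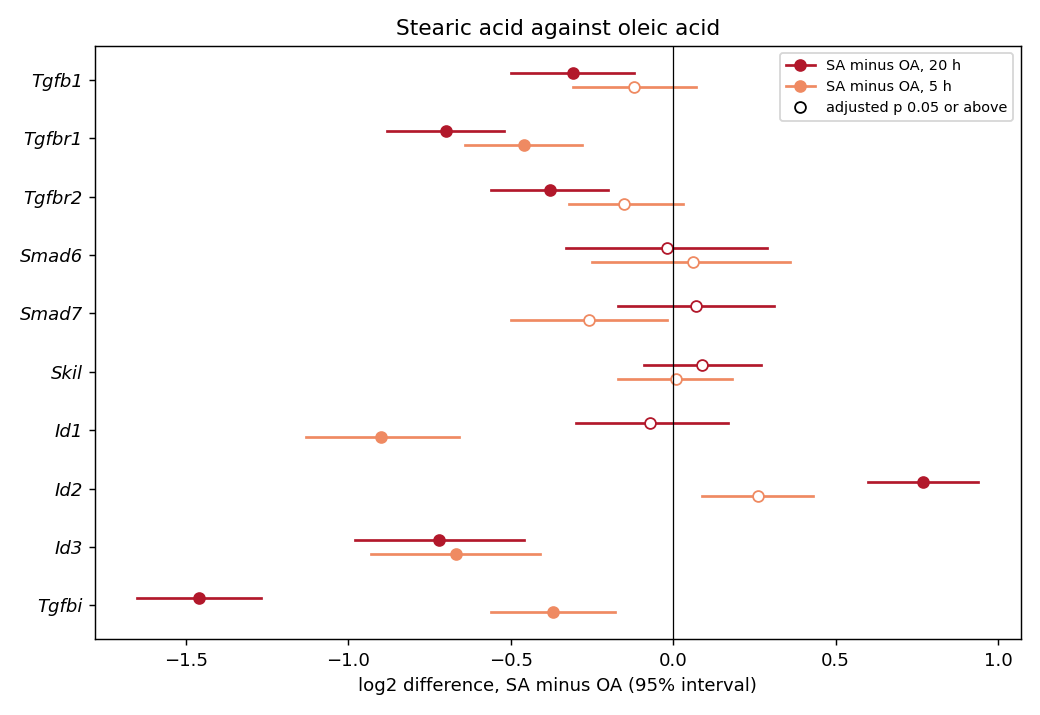
Log2 difference of SA from OA for the 10 genes at 20 h and 5 h, with 95% intervals from the limma fit; filled points have an adjusted p under 0.05 over all genes. Id1 stands at -0.90 at 5 h and -0.07 at 20 h, while Tgfbi stands at -0.37 at 5 h and -1.46 at 20 h.

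At 5 h, Id1 separated the acids most among the 10 genes. It was 1.86-fold lower with SA, at 5.56 ± 0.15 against 6.46 ± 0.11 with OA (SD, n = 4 each). Id3 was 1.59-fold lower, at 8.09 ± 0.11 against 8.75 ± 0.07 (SD, n = 4 each), and Tgfbr1 was 1.38-fold lower, at 9.58 ± 0.07 against 10.04 ± 0.07 (SD, n = 4 each). The adjusted p in limma was 6.02e-06 for Id1 and 0.00103 for both Id3 and Tgfbr1. Tgfbi changed by -0.37 ± 0.09 (SE) (adjusted p = 0.0158). That call was lost without replicate 2 of 5 h OA (adjusted p = 0.0583), without replicate 1 or replicate 2 of 5 h SA (adjusted p = 0.0597 and 0.0727), and in a fit of the compared groups alone (adjusted p = 0.123). None of the 10 genes rose and 4 fell, where 5.67% of all genes were called, 3.3% upward and 2.37% downward. Their median difference was -0.20, and that of all genes was 0.01. The mean of the 8 macrophage markers was 9.51 to 9.56 with SA against 9.85 to 9.89 with OA. Each marker averaged lower with SA, by unlike amounts. Fcgr1 averaged 6.51 against 7.58, Mertk 5.8 against 6.62, Cd68 11.34 against 11.42 and Adgre1 10.39 against 10.46. The part of these markers in the falls at 5 h was not tested.

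Some genes lay apart between the acids at 5 h without a call. Id2 differed by 0.26 (95% interval 0.09 to 0.43), with every SA array above every OA array and an adjusted p of 0.0617 in limma. Under 4 of the other settings this difference was called, at adjusted p values from 0.00843 to 0.0479. Smad7 differed by -0.26 (95% interval -0.50 to -0.02, adjusted p = 0.258) and Tgfbr2 by -0.15 (95% interval -0.32 to 0.03, adjusted p = 0.428), also without overlap. In all, 7 of the 10 genes had groups that did not overlap, as did 10.4% of all genes. The differences were 0.06 for Smad6 (95% interval -0.25 to 0.36), 0.01 for Skil (95% interval -0.17 to 0.18) and -0.12 for Tgfb1 (95% interval -0.31 to 0.07).

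The difference between the acids changed with time for Id1, Id2 and Tgfbi by the test of the interaction, the difference at 20 h minus that at 5 h. For Tgfbi the change was -1.09 ± 0.13 (SE), with an adjusted p of 3.64e-06 in limma. For Id1 it was 0.83 ± 0.16 (SE) (adjusted p = 0.00139), the means at 20 h being 4.61 with SA and 4.68 with OA. Both means are near the medians of the tested genes, 4.26 in 20 h SA and 4.27 in 20 h OA. The size of the change for Id1 is therefore uncertain. For Id2 the change was 0.51 ± 0.12 (SE) (adjusted p = 0.00687). These 2 rises and 1 fall compare with 4.98% of all genes called in this test, 1.58% upward and 3.4% downward. Id3 gave -0.06 (95% interval -0.42 to 0.31), with differences between the acids of -0.72 at 20 h and -0.67 at 5 h. For Smad7, Tgfbr1 and Tgfbr2 the values were 0.32, -0.24 and -0.23, each with an adjusted p between 0.385 and 0.401.

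Against vehicle at 5 h, Id1, Id3, Tgfbi and Tgfbr1 were lower with SA. Id1 was 1.76-fold lower, at 5.56 ± 0.15 with SA (SD, n = 4) against 6.38 ± 0.07 with vehicle (SD, n = 3). The log2 difference was -0.82 ± 0.12 (SE), with an adjusted p of 1.22e-04 in limma. Tgfbi changed by -0.45 ± 0.10 (SE) (adjusted p = 0.00939), Tgfbr1 by -0.37 ± 0.09 (SE) (adjusted p = 0.0274) and Id3 by -0.51 ± 0.14 (SE) (adjusted p = 0.034). Id2, which stood higher with SA than with OA, was not called against vehicle in limma. It differed by 0.13 (95% interval -0.05 to 0.31, adjusted p = 0.599), and its arrays overlapped. The 10 genes thus had 4 falls and no rise, where 3.33% of all genes were called, 1.94% upward and 1.39% downward. Their median difference was -0.16, and that of all genes was 0.01. The mean of the 8 macrophage markers was also lower, at 9.51 to 9.56 with SA against 9.77 to 9.85 with vehicle. Each marker averaged lower with SA, by unlike amounts, with Fcgr1 at 6.51 against 7.37 and Cd68 at 11.34 against 11.46. The part of these markers in the falls against vehicle was not tested. Of these calls, that of Id1 held in every setting tried. Id3 lost its call without vehicle replicate 2 or 3 or without any 1 of the 4 SA arrays (adjusted p from 0.0517 to 0.182). Tgfbr1 lost it without vehicle replicate 2 or 3 or SA replicate 1 or 4 (adjusted p from 0.064 to 0.201), after quantile normalisation and in a fit of the compared groups alone. Tgfbi lost it without vehicle replicate 3 (adjusted p = 0.0508) and in the fit of the compared groups alone (adjusted p = 0.0931).

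OA at 5 h gave no call among the 10 genes against vehicle in limma, over all genes, and none had an unadjusted p under 0.05. Of all genes 0.0702% were called, 0.0201% upward and 0.0502% downward, and 1128 had an unadjusted p under 0.05. The log2 differences of the 10 genes ran from -0.13 for Id2 (95% interval -0.32 to 0.05) to 0.16 for Id3 (95% interval -0.12 to 0.44). With the same vehicle arrays, the values of SA and OA were -0.82 and 0.08 for Id1, -0.51 and 0.16 for Id3, -0.45 and -0.08 for Tgfbi, and -0.37 and 0.10 for Tgfbr1.

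**Figure D3:**
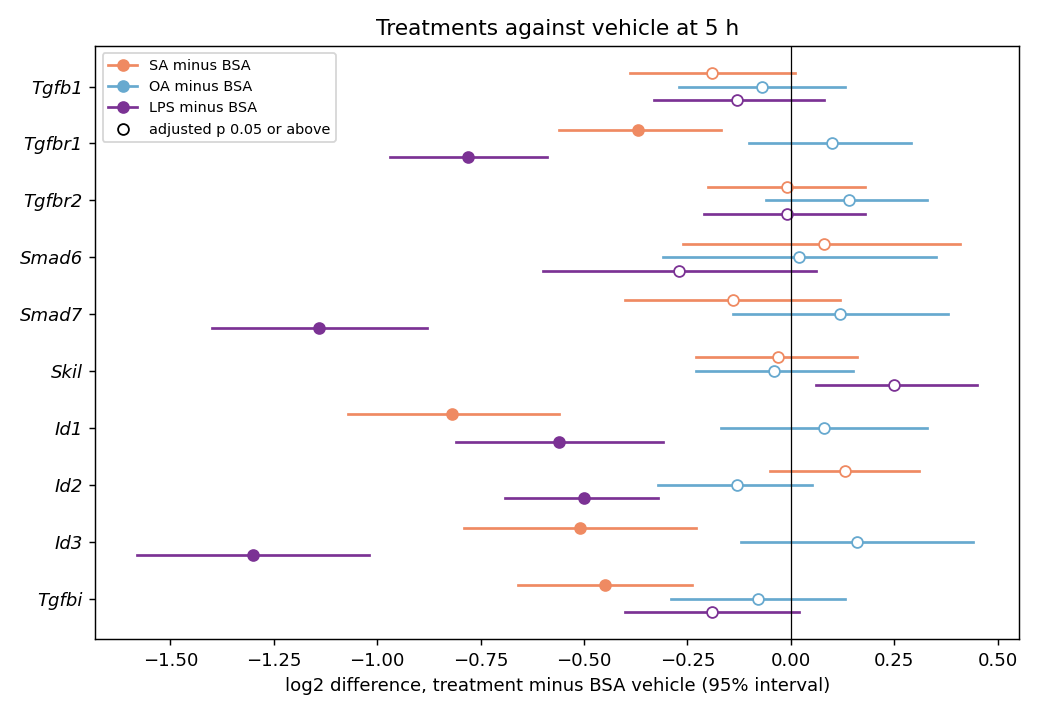
Log2 difference of SA, OA and LPS from the BSA vehicle at 5 h for the 10 genes, with 95% intervals; filled points have a limma adjusted p under 0.05 over all genes. All 3 treatments share the same 3 vehicle arrays. Smad7 stands at -1.14 with LPS and between -0.14 and 0.12 with the acids. Its LPS level is near the median of the tested genes.

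All 3 Id genes, Smad7 and Tgfbr1 were lower with LPS than with vehicle at 5 h. Id3 was 2.47-fold lower, at 7.29 ± 0.06 with LPS (SD, n = 4) against 8.60 ± 0.15 with vehicle (SD, n = 3). Smad7 was 2.21-fold lower, with means of 4.44 ± 0.26 under LPS (SD, n = 4) and 5.59 ± 0.25 under vehicle (SD, n = 3). The LPS mean of Smad7 is near the median of the tested genes with LPS, 4.20, so the size of its fall is uncertain. Tgfbr1 was 1.72-fold lower. The adjusted p in limma was 3.98e-08 for Id3, 9.91e-08 for Smad7 and 4.46e-07 for Tgfbr1. Id1 changed by -0.56 ± 0.12 (SE) (adjusted p = 0.00115) and Id2 by -0.50 ± 0.09 (SE) (adjusted p = 9.79e-05). The 5 falls and no rise compare with 22.4% of all genes called, 9.22% upward and 13.2% downward, so a call under LPS was common on the whole array. The median difference was -0.39 for the 10 genes and -0.02 for all genes. Skil differed by 0.25 (95% interval 0.06 to 0.45, adjusted p = 0.0527), with every LPS array above every vehicle array. It was called in 3 other settings, at adjusted p values from 0.0266 to 0.0347, and without LPS replicate 1 (adjusted p = 0.0449). Tgfb1, Tgfbr2, Tgfbi and Smad6 were not called, at -0.13, -0.01, -0.19 and -0.27, and Tgfbi was called after quantile normalisation (adjusted p = 0.0443). The mean of the 6 stromal markers was 3.45 to 3.66 with LPS against 3.20 to 3.34 with vehicle. Among them Pdgfrb averaged 4.98 with LPS against 3.20 with vehicle, Dcn 3.50 against 3.30, and the other 4 were lower with LPS. The mean of the 7 neutrophil markers was 6.96 to 7.12 with LPS against 6.80 to 6.95 with vehicle, with Camp at 7.75 against 6.95 and Ly6g and Elane below the median of the tested genes in both groups. The part of these markers in the differences was not tested.

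Set directly against LPS at 5 h, Smad7, Id3, Id2 and Tgfbr1 were higher with SA. Smad7 was 2.01-fold higher with SA, at 5.45 ± 0.12 against 4.44 ± 0.26 with LPS (SD, n = 4 each), with a limma adjusted p of 2.24e-07. Its LPS mean is near the median of the tested genes, so the size of this difference is uncertain. Id3 was 1.73-fold higher and Id2 1.55-fold higher, with adjusted p values of 2.34e-05 and 1.31e-06. Tgfbr1 differed by 0.41 ± 0.09 (SE) (adjusted p = 7.25e-04). Id1 did not pass, at -0.26 (95% interval -0.49 to -0.02, adjusted p = 0.117), and was called after quantile normalisation (adjusted p = 0.0441) and without SA replicate 2 (adjusted p = 0.0493). Skil was lower with SA by -0.29 ± 0.09 (SE) (adjusted p = 0.0161) and Tgfbi by -0.26 ± 0.09 (SE) (adjusted p = 0.0473), although the Tgfbi arrays overlapped. The 4 rises and 2 falls compare with 22.1% of all genes called, 13% upward and 9.11% downward. Their median difference was 0.17, and that of all genes was 0.04. The mean of the 8 macrophage markers was 9.51 to 9.56 with SA against 9.88 to 9.99 with LPS. Fcgr1 averaged 6.51 against 8.62, while Csf1r, Cd68 and Itgam averaged higher with SA. The mean of the 7 neutrophil markers was 6.55 to 6.90 against 6.96 to 7.12. Among the stromal markers Pdgfrb averaged 3.15 against 4.98, while Col3a1 and Lum averaged higher with SA. The part of these markers in the differences from LPS was not tested. The Skil call was lost without LPS replicate 3 or SA replicate 1 or 2 (adjusted p from 0.0528 to 0.074). The Tgfbi call was lost without LPS replicate 1, 3 or 4 or SA replicate 1 or 2 (adjusted p from 0.0512 to 0.176). Both were also lost after quantile normalisation and in a fit of the compared groups alone, and that of Tgfbi with array quality weights (adjusted p = 0.0871).

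Between 5 h and 20 h, the same 8 genes fell with each acid: Id1, Id2, Id3, Smad6, Smad7, Skil, Tgfbi and Tgfbr1. With SA, Tgfbi was 6.28-fold lower at 20 h, at 7.01 ± 0.11 against 9.66 ± 0.19 at 5 h (SD, n = 4 each), and Id3 was 5.01-fold lower. With OA, Id3 was 4.82-fold lower at 20 h, at 6.49 ± 0.27 against 8.75 ± 0.07 at 5 h (SD, n = 4 each), and Id1 was 3.44-fold lower. The mean of the 7 neutrophil markers was 6.91 to 7.12 at 20 h against 6.55 to 6.90 at 5 h with SA, and 6.95 to 7.18 at 20 h against 6.72 to 6.94 at 5 h with OA. The mean of the 8 macrophage markers was 9.07 to 9.20 at 20 h against 9.51 to 9.56 at 5 h with SA. With OA it was 9.91 to 9.94 at 20 h against 9.85 to 9.89 at 5 h. The members did not move alike with OA, as Cd14 averaged 9.98 at 20 h against 10.75 at 5 h, and Mertk 7.32 against 6.62. Csf1r also averaged lower at 20 h with OA, and the other markers averaged higher. With SA, Cd68 averaged higher at 20 h, at 11.48 against 11.34, as did Mertk, at 6.42 against 5.8. The other macrophage markers averaged lower at 20 h with SA, such as Cd14 at 9.35 against 10.61. The part of these markers in the falls was not tested. Of all genes, 12.8% were called with SA, 6.23% upward and 6.57% downward, and 4.38% with OA, 2.58% upward and 1.80% downward. The median difference of the 10 genes was -0.91 with SA and -0.99 with OA, and that of all genes was 0.01 and 0.00. The 20 h groups have no vehicle of their own, so time in culture and exposure to the acid cannot be told apart in these falls.

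With SA the log2 difference of 20 h from 5 h was -2.65 ± 0.09 (SE) for Tgfbi (limma adjusted p = 6.90e-16) and -2.32 ± 0.13 (SE) for Id3 (adjusted p = 1.03e-12). Skil changed by -1.36 ± 0.09 (SE), with an adjusted p of 2.06e-11. The other 5 fell by amounts from -0.56 for Id2 to -0.95 for Id1, with adjusted p values up to 6.92e-04. With OA the difference was -2.27 ± 0.13 (SE) for Id3 (adjusted p = 1.16e-11) and -1.78 ± 0.11 (SE) for Id1 (adjusted p = 9.07e-11). Tgfbi changed by -1.56 ± 0.09 (SE) and Skil by -1.45 ± 0.09 (SE), with an adjusted p of 3.39e-11 each. The other 4 ran from -0.66 for Tgfbr1 to -1.07 for Id2, with adjusted p values up to 6.84e-04. Tgfb1 and Tgfbr2 were not called with either acid. With SA they stood at 0.02 (95% interval -0.17 to 0.21) and 0.00 (95% interval -0.17 to 0.18). With OA they stood at 0.21 (95% interval 0.02 to 0.40, adjusted p = 0.245) and 0.24 (95% interval 0.06 to 0.42, adjusted p = 0.13). The interaction given above is also the test of whether these changes with time differ between the acids. Tgfbi fell more with SA than with OA, and Id1 and Id2 fell more with OA than with SA. Id1 levels at 20 h are near the median of the tested genes, so the size of its falls is uncertain.

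**Figure D4:**
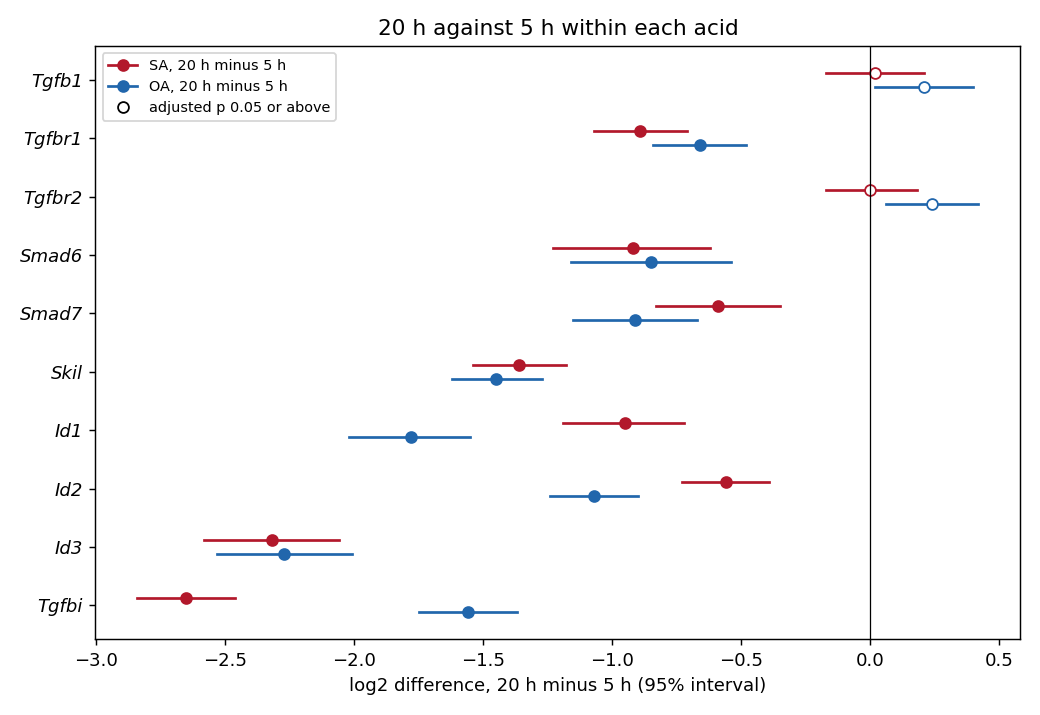
Log2 difference of 20 h from 5 h within SA and within OA for the 10 genes, with 95% intervals; filled points have a limma adjusted p under 0.05 over all genes. The 8 filled genes lie left of 0 with both acids, and Tgfb1 and Tgfbr2 lie between 0.00 and 0.24.

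Other genes of the pathway were taken from 9 lists by role, of which 95 genes were measured. Between SA and OA at 20 h, 8 of the 95 rose and 14 fell, against 7.72% and 8.95% of all genes. Among 13 other ligand genes 1 rose and 2 fell. Gdf3, a member of the TGF-beta family that macrophages express, changed by -1.19 ± 0.10 (SE) (limma adjusted p = 2.50e-09), at 6.62 ± 0.20 with SA against 7.82 ± 0.13 with OA (SD, n = 4 each). Inhba, the subunit of activin A, rose by 0.83 ± 0.20 (SE) (adjusted p = 0.00426), although its arrays overlapped. Its mean with OA, 3.64, was below the array medians. Of 12 genes for latency and activation, 2 rose and 3 fell. The integrin subunit Itgav, which takes part in freeing TGF-beta, changed by -0.74 ± 0.07 (SE) (adjusted p = 6.33e-09). Nrros, which anchors latent TGF-beta on myeloid cells, changed by -0.70 ± 0.11 (SE) (adjusted p = 4.90e-05), and the related anchor Lrrc32 by 0.60 ± 0.16 (SE).

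The other receptors, SMADs, inhibitors and targets were compared between the acids at 20 h, where 7.72% of all genes rose and 8.95% fell. Of 12 other receptors of the family 1 fell, the activin receptor Acvr1b, at -0.60 ± 0.14 (SE) (limma adjusted p = 0.00202). None of 7 genes for signalling SMADs and the anchor Zfyve9 was called in limma, and 2 had an unadjusted p under 0.05. Of 16 other inhibitors 3 rose and none fell. These were the ubiquitin ligases Nedd4l, at 0.41, and Smurf1, at 0.29, and the repressor Tgif1, at 0.24. Of 12 TGF-beta targets 1 rose and 2 fell. Fibronectin (Fn1) changed by -1.37 ± 0.12 (SE) and the transcription factor Bhlhe40 by 0.91 ± 0.12 (SE). None of 7 BMP targets was called in limma, and 0 had an unadjusted p under 0.05. Among them Hamp averaged 2.58 with SA and 2.27 with OA, below the array medians. The list thus does not show that BMP signalling was equal with both acids.

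Genes known to depend on TGF-beta in microglia were set apart as a list. Of 9 measured between SA and OA, 4 fell and none rose at 20 h, with a median of -0.30, and 4 fell at 5 h, with a median of -0.17. Of all genes 8.95% fell at 20 h and 2.37% at 5 h. The fractalkine receptor Cx3cr1 stood at 5.01 ± 0.33 with 20 h SA against 7.15 ± 0.03 with 20 h OA (SD, n = 4 each). The scavenger receptor gene Fcrls changed by -2.12 ± 0.18 (SE) at 20 h and -0.65 ± 0.18 (SE) at 5 h. In 20 h SA it stood at 4.38 ± 0.48 (SD, n = 4), near the array medians, so the size of its change at 20 h is uncertain. Gpr34, a lysophospholipid receptor, changed by -1.69 ± 0.11 (SE) and -0.74 ± 0.11 (SE), but its levels were below the array medians in 20 h SA and in all 5 h groups. Its mean in 20 h OA, 4.08, was close to those medians, so the size of both changes is uncertain. Cx3cr1 was also lower with LPS than with vehicle, at 6.81 ± 0.17 (SD, n = 4) against 8.36 ± 0.03 (SD, n = 3).

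Helix-loop-helix factors, the partners of Id proteins, formed the last list, of which 7 were measured. Between SA and OA at 20 h 1 rose and 2 fell, where 7.72% and 8.95% of all genes did. The E protein gene Tcf4 changed by -0.80 ± 0.10 (SE) (limma adjusted p = 7.83e-07) and the E protein gene Tcf12 by 0.45 ± 0.09 (SE) (adjusted p = 4.08e-04). Lyl1, a blood-cell factor that pairs with E proteins, changed by -0.45 ± 0.12 (SE). With LPS against vehicle, Tcf4 rose by 1.09 ± 0.11 (SE) and Lyl1 changed by -1.22 ± 0.13 (SE), while Tcf12 was not called.

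At 5 h, of the 95 pathway genes, 5 rose and 7 fell between SA and OA, where 3.3% and 2.37% of all genes did. Between SA and vehicle 3 rose and 4 fell, where 1.94% and 1.39% of all genes did, and none was called between OA and vehicle in limma, where 6 had an unadjusted p under 0.05. With LPS 16 rose and 12 fell, where 9.22% and 13.2% of all genes did. Itgb8, an integrin subunit that frees TGF-beta, stood at 7.0 ± 0.08 with LPS (SD, n = 4) against 3.43 ± 0.30 with vehicle (SD, n = 3), where the vehicle level was below the array medians. Thbs1 and Mmp14, which also take part in activation, rose by 1.77 ± 0.10 (SE) and 1.71 ± 0.13 (SE). Inhba rose by 1.74 ± 0.22 (SE), from a vehicle mean of 3.88 that was also below the array medians. Smad3, a SMAD that carries the TGF-beta signal, changed by -0.61 ± 0.12 (SE) and the repressor Ski by -0.75 ± 0.12 (SE). The LPS mean of Smad3, 4.46, was near the median of the tested genes with LPS, 4.20. The size of the Smad3 change is therefore uncertain. Between 5 h and 20 h, 4 of the 95 rose and 15 fell with SA, where 6.23% and 6.57% of all genes did. With OA 5 rose and 8 fell, where 2.58% and 1.80% of all genes did. Klf10, an early TGF-beta target, changed by -0.56 ± 0.08 (SE) with SA and -0.68 ± 0.08 (SE) with OA.

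Among the 10 genes themselves, Id1 and Id3 had the highest correlation over the 23 arrays, at a Pearson r of 0.92. Id3 had an r of 0.89 with both Tgfbi and Tgfbr1, and Skil had an r of 0.89 with Tgfbi. Tgfb1 had an r of 0.66 with Tgfbr2 and of -0.56 with Id2. These values describe 23 arrays that share 6 groups. After removal of the group means the r of Id1 with Id3 was 0.26 and that of Skil with Tgfbi was 0.28. The r of Id3 was then 0.10 with Tgfbi and -0.04 with Tgfbr1. Among 5710 genes whose group means span at least 0.5, the gene most like Id1 was Id3, at 0.916, followed by Ankrd28 and Fabp7. Fabp7 (0.966) and Cxcl14 (0.952) were most like Id3, and Rnf149 (0.929) was most like Id2. Slc7a8 (0.982) was most like Tgfbi, and Gpr84 (0.975) most like Skil. Klf10 (0.938) was most like Smad7, Carmil1 (0.860) most like Smad6, Csk (0.856) most like Tgfbr2 and Zeb2os (0.784) most like Tgfb1. Tgfbr1 was most like Fos (0.959) and Cx3cr1 (0.956).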

How the data were processed

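RNA of 23 samples was measured on single-channel arrays. Each deposited value is the log2 expression of 1 probe set, which the authors made with RMA, per the submitters' processing notes; these also name limma, and versions and the genome build are not given in the sources used here. RMA fits arrays together, which can narrow differences between them. Of 35556 probe sets, 21789 carried 1 symbol in the platform table, which gave 19938 genes. A mean per group was fitted to all arrays with limma 3.58.1 in R 4.3.3, with moderated variances, two-sided tests and Benjamini-Hochberg adjustment over all genes of a comparison. The number of arrays limits the precision. The fit was tested on simulated data. The genes and lists were chosen with earlier results of these data known. All 10 genes are named. From each list, up to 3 called genes of largest change per comparison could be named, and each gene's 3 likest genes. Sequences are from RefSeq, GRCm38.p6. Figures used Python 3.11.15 and matplotlib 3.10.9.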

Additional observations from a re-analysis of the deposited data

Results flagged for a closer look

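For Id1, Id2 and Tgfbi the difference of SA from OA was not the same at 20 h and 5 h by the interaction test in limma. The change in that difference, 20 h minus 5 h, was 0.83 for Id1 (adjusted p = 0.00139), 0.51 for Id2 (adjusted p = 0.00687) and -1.09 for Tgfbi (adjusted p = 3.64e-06). Id1 levels at 20 h are near the median of the tested genes, so the size of its change is uncertain.

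In 20 h OA, replicate 1 stood apart from the other arrays of its group for 2 genes, by Dixon's test. Smad6 read 4.56 there, against 3.88 to 3.98 on the other arrays. Tgfbr2 read 6.37, against 6.00 to 6.06. Among 50 sets of 4 arrays tested, 2 were singled out, and chance singles out about 1 in 20.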

How the results depend on the processing

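Of 90 differences (10 genes in 9 comparisons), 44 were called, and 7 of these lost the call under at least 1 of the 9 other settings or on leaving out 1 array; 4 of the others gained one. No called difference changed sign. Those not named in the report kept their calls. A fit of the compared groups alone called 660 genes for SA against OA at 5 h (1131 with all groups), 373 for SA against vehicle (664) and 7 for OA against vehicle (14), and 2 of the 10 genes for SA against vehicle (4). With trend and robust moderation 29 genes were called for OA against vehicle. On leaving out 1 array, SA against vehicle had 389 to 580 genes and 1 to 4 of the 10 genes called, with 389 genes and 2 of the 10 without vehicle replicate 2, 1 of the 10 without vehicle replicate 3, and 2 of the 10 without SA replicate 1 or 4. OA against vehicle had 7 to 16 genes called, with 9 without vehicle replicate 2 and 7 without replicate 3. The cause of these shifts was not tested. The replicate block moved no count by over 1.5 times. It added 1 call among the 10 genes, Id2 for SA against OA at 5 h (adjusted p = 0.0479), and called 3313 genes for SA against OA at 20 h. Arrays of the same number in different groups had deviations with a median correlation of 0.017, 7 of 55 pairs were over 0.1, against 4 of 165 pairs of unlike number, and 10 of 23 arrays correlated best with their own number, a hint of pairing. The main fit did not pair the samples by number, and pairing was not excluded. The replicate block is the setting that allows for it. Signal over background was not assessed, which limits genes near or below the array medians. Examples are Smad6 and Id1 at 20 h, Smad7 with LPS and Fcrls in 20 h SA.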
